A study of Mus musculus with 6 samples.

Results

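The transcripts that encode the nuclear pore complex were described in oocytes of naturally aged mice. Members were the protein-coding genes whose symbols name a nucleoporin or an established pore component, and 32 of the 25631 listed genes, of which 17773 are protein coding, met this rule. Of these, 28 reached an FPKM of 1 (fragments per kilobase of gene, scaled to library size) in 3 or more libraries and were tested. The 4 others, Nup205, Nup210, Nup210l and Nup62cl, were measured but not tested.

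The nuclear pore is a ring-shaped channel through the nuclear envelope, built from repeated copies of proteins called nucleoporins. Inner and outer rings form its scaffold, membrane proteins anchor it, and nucleoporins with flexible phenylalanine-glycine (FG) repeats fill the channel and let only cargo bound to transport receptors pass. In a fully grown oocyte transcription has largely ceased, the pore stock is held in a large nucleus called the germinal vesicle, and the stored messages serve meiotic maturation and the early embryo.

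The study asked whether oral aminophylline, a theophylline derivative that inhibits phosphodiesterases, changes the oocytes of aged females. The mice were of the ICR strain and 14 months old. The aminophylline group, 3 libraries, drank 4.0 mM aminophylline for 1 week and then water only for 3 weeks, and the control group, 3 libraries labelled aged and untreated, had water. Both groups received equine chorionic gonadotropin, and oocytes were punctured from large antral follicles, so every library comes from hormone-primed old females and no young group was part of the comparison. No source used here gives the number of mice or oocytes per library or says that libraries came from separate animals, so p-values measure only the spread between these libraries.

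Libraries held 14112341 to 33641283 reads, the smallest being control 2, and 3 reads corresponded to 0.0892 to 0.213 RPM (reads scaled to library size). All 12 oocyte markers reached a mean FPKM of 1, with a summed FPKM of 18800 to 25730 per library. Granulosa and cumulus markers summed to 15.99 to 23.9, with 3 of 12 reaching a mean FPKM of 1. Erythrocyte markers summed to at most 0.585, endothelial markers to 5.63 to 8.89, and stromal and thecal markers to 2.90 to 5.24. Macrophage markers summed to 266 in control 1 against 82.8 to 104 in the other 5 libraries, and 11 of the 13 listed ones were highest in control 1. In those 5 libraries the defining macrophage markers C1qc and Adgre1 were at 0, while C1qb was at 72.3 to 99.8 FPKM in all 6. Control 1 therefore stood apart. Without it are also given the member counts at unadjusted p under 0.05 and the separated ratios among those examined singly. The log2 fold changes of members at unadjusted p under 0.05 with or without the replicate block are given without it too. The counts over all pairs, the length and GC relations, the comparison of SDs and the partner genes are given with all 6 libraries only.

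Pore transcripts spanned a wide range of levels in these oocytes, as the plot of FPKM by structural group shows. The highest was Nup35 at a mean of 289.5 FPKM, above 96.4% of the tested genes, and the lowest tested was Nup155 at 1.06 FPKM. The summed FPKM of all 32 members was 1493, 1327 and 1493 in control 1 to 3 and 1378, 1373 and 1348 in aminophylline 1 to 3. These sums overlapped between the groups. No member reached an adjusted p of 0.05 (limma, Benjamini-Hochberg over the 10340 genes tested), and the smallest adjusted p among them was 0.682. Across all tested genes the share past that threshold was also 0.00%.

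**Figure D1:**
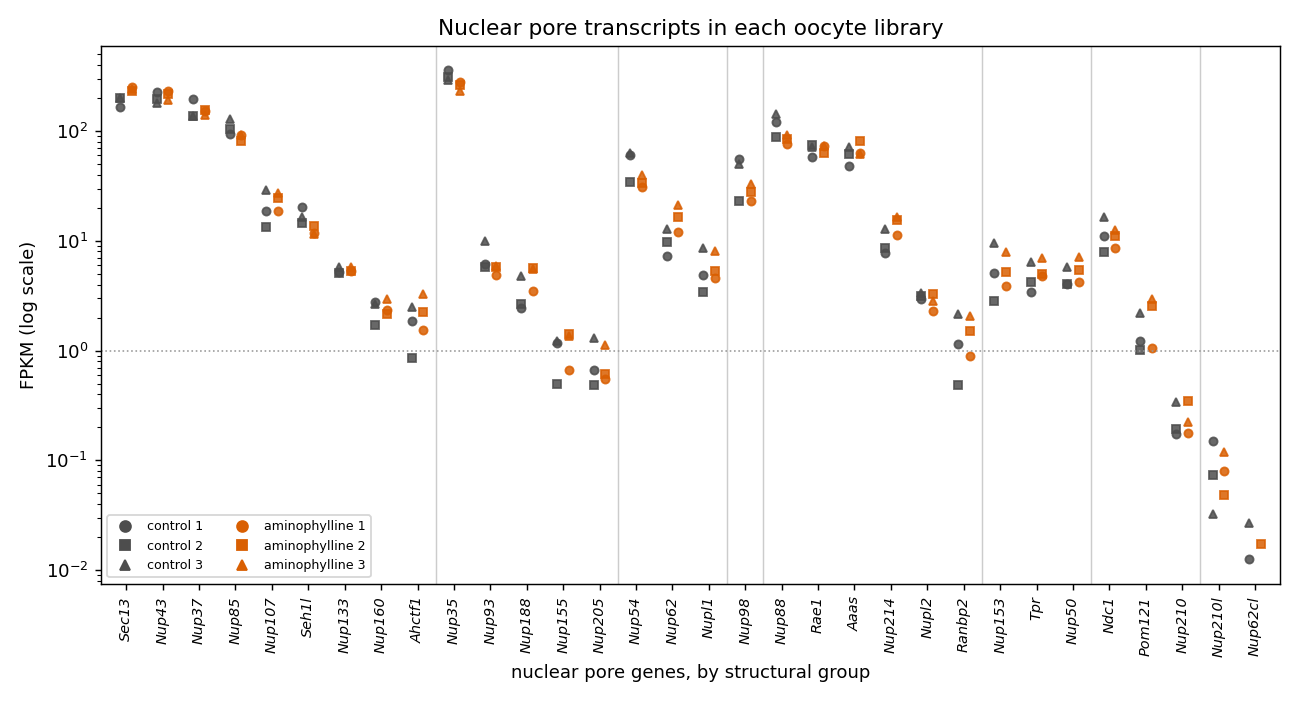
FPKM on a log axis for the 32 nuclear pore genes, ordered by structural group and then by mean level. Grey points are the control libraries and orange points the aminophylline libraries, with circle, square and triangle for replicates 1, 2 and 3, and the dotted line marks an FPKM of 1. Nup35, Sec13, Nup43 and Nup37 lie at the top, Nup210, Nup210l and Nup62cl below the line in each library, and libraries with a value of 0 have no point.

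Without adjustment, 3 members had p under 0.05 with a higher mean in the aminophylline group (Nup62, Nup214 and Sec13), and 2 with a lower one (Nup54 and Nup88). The same count over all tested genes was 4.41% in the higher direction and 2.84% in the lower. Quantile normalization gave 2 higher and 4 lower members, with 3.36% higher and 5.11% lower over all tested genes. A replicate block treats equally numbered libraries as pairs, a pairing that no source used here states. Under the block the counts were 4 higher, adding Nup188, and 4 lower, adding Nup98 and Seh1l. The background under the block was 9.88% and 4.30%, and 0.455% of all tested genes, none of them a member, had an adjusted p under 0.05. The smallest adjusted p of a member with the block was 0.104, for Nup62.

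The median log2 fold change (aminophylline minus control, on the log2(FPKM + 1) scale) of the 28 members was 0.07, against 0.10 over all tested genes, and 18 of the 28 values were positive. In 4 members the values of both groups did not overlap. Sec13 was the 1 with higher aminophylline values, beside a background of 7.51%, and Nup35, Nup85 and Seh1l were the 3 with lower ones, beside 4.96%. Fewer cells of a type and less RNA per cell cannot be told apart in such bulk samples. The counts at unadjusted p under 0.05 depended on single libraries. There were 0 higher and 0 lower members without control 1, beside 2.07% and 1.50% of all tested genes, and likewise without aminophylline 2, beside 1.96% and 1.22%. Without control 2 there were 2 higher and 4 lower, beside 8.37% and 7.27%, and without control 3 there were 5 and 1, beside 11.8% and 2.47%. Without aminophylline 1 the counts were 3 and 0, beside 5.23% and 1.58%, and without aminophylline 3 they were 0 and 2, beside 2.41% and 1.73%. Without control 1 the log2 fold changes were 0.49 for Nup62, 0.40 for Nup214, 0.33 for Nup188 and 0.27 for Sec13, and -0.42 for both Nup54 and Nup88, -0.31 for Seh1l and -0.28 for Nup98.

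**Figure D2:**
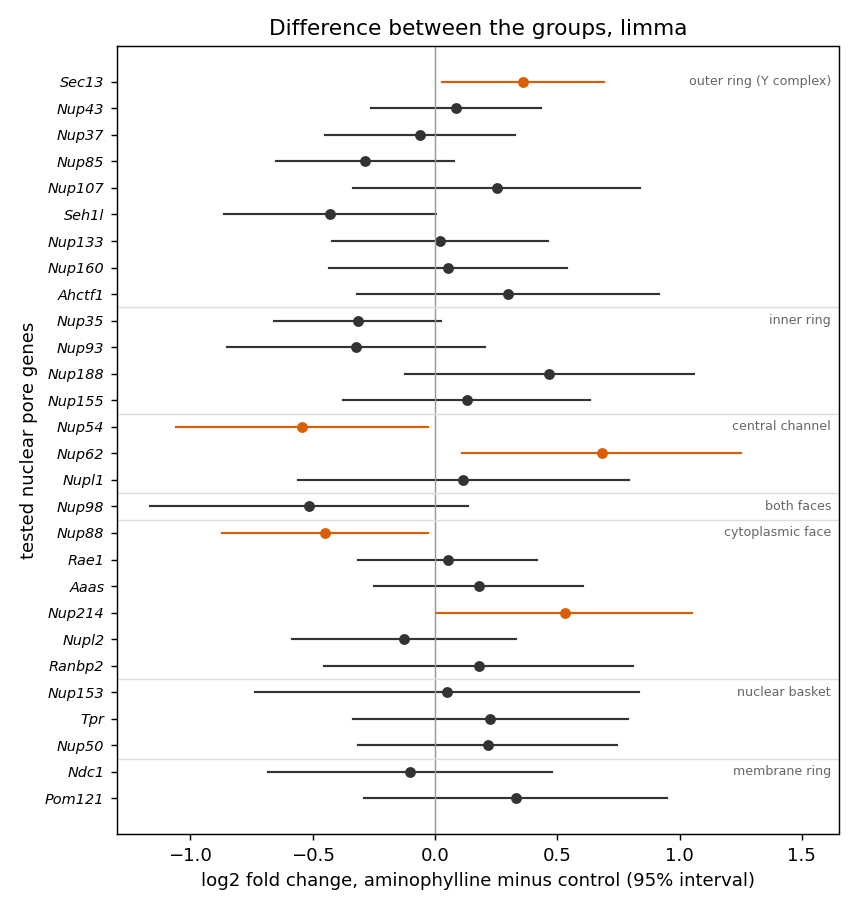
Log2 fold change (aminophylline minus control) with its 95% interval from limma for the 28 tested nuclear pore genes, by structural group. Orange marks the 5 genes with an unadjusted p under 0.05, none of which passed adjustment. Nup62 and Nup54, which share a channel complex, lie at the right and left ends.

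The pairs Nup62 with Nup54 and Nup214 with Nup88 carry the contrasts described next and were picked for that reason. The sequences around their transcription starts are shown here. Each is the RefSeq window from 250 bases before to 50 bases after the start in GRCm38.p6, written on the gene's own strand. Capitals mark matches on either strand to motifs searched by their letters: the CCAAT box CCAAT, the GC box GGGCGG, the TATA box TATAAA, the E-box CACGTG, the NRF1 core GCATGCGC and the ETS core CCGGAAGT, with overlapping matches kept. The windows lie at chr7:44815838-44816137 (plus strand) for Nup62, chr5:92435150-92435449 (minus strand) for Nup54, chr2:31974200-31974499 (plus strand) for Nup214 and chr11:70969924-70970223 (minus strand) for Nup88.
Nup62: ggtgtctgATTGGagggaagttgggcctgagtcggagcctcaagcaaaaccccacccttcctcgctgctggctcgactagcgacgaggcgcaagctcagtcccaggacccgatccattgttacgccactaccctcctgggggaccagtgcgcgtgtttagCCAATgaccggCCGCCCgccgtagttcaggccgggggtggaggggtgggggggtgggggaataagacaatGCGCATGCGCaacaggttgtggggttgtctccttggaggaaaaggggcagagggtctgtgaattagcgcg
Nup54: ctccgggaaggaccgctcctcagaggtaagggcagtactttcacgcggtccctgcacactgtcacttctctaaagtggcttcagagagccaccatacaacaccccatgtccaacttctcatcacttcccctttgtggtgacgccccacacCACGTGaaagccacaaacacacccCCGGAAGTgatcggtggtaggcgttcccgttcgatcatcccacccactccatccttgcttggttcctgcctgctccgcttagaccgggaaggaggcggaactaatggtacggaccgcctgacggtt
Nup214: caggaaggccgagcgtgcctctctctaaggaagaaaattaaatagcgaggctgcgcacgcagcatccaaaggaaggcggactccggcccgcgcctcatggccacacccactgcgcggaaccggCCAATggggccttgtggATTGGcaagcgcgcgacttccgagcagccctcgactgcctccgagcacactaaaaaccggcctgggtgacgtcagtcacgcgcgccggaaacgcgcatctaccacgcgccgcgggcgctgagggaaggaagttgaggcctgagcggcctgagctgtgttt
Nup88: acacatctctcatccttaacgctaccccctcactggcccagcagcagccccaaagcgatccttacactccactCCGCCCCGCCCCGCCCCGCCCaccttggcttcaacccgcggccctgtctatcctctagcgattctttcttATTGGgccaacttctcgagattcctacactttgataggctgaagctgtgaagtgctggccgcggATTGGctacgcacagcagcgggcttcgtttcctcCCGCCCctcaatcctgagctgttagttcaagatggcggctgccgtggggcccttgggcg

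The Nup62 window held 5 motif matches, of which 2 were overlapping NRF1 cores on opposite strands, while the Nup54 window held an E-box and an ETS core. The Nup88 window held 5 GC boxes and 2 CCAAT boxes, and the Nup214 window 2 CCAAT boxes and no GC box. Windows were found for 27 of the 32 members. The NRF1 core was present in 4 of the 27 (Nup62, Nupl1, Nup50 and Nup107), or 14.8%, against 3.05% of the 27025 genes with a window. The GC box was present in 66.7% of members against 38.2% of all genes, and the ETS core in 18.5% against 4.31%. The CCAAT box was present in 40.7% against 41.1%, the E-box in 14.8% against 8.09%, and the TATA box in 11.1% against 15.7%. The members' windows were rich in GC, with a median of 63.7% against 52.7% in all windows. The comparison genes were all those with a window, whether or not expressed in these oocytes, and were not matched on GC. These are matches of letters and not binding sites, and a relation between motifs and differences of level was not tested.

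The central channel is lined by a complex of Nup62, Nup54 and Nup58, the last encoded by Nupl1, whose FG repeats form the transport barrier. Nup62 (chr7:44816088-44831836 in GRCm38) was at 7.24, 9.86 and 12.8 FPKM in control 1 to 3 and at 12.1, 16.4 and 21.4 in aminophylline 1 to 3. Only the lowest aminophylline library lay under the highest control library, so the groups overlapped by 1 library. Its mean was 9.95 ± 2.76 FPKM in controls and 16.6 ± 4.65 with aminophylline (SD, n = 3 each), a log2 fold change of 0.68 (SE 0.26, limma unadjusted p = 0.0232, adjusted p = 0.682). With the replicate block the unadjusted p was 0.00173.

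Nup54 (chr5:92415540-92435259) had the most negative log2 fold change of the members. Its FPKM was 60.3, 34.4 and 63.3 in control 1 to 3 and 31.0, 33.9 and 39.5 in aminophylline 1 to 3. Control 2 lay among the aminophylline libraries, and the other controls lay above all of them. The log2 fold change was -0.54 (SE 0.23, limma unadjusted p = 0.0409, adjusted p = 0.682). It was -0.82 without control 2, -0.42 without control 1 and -0.39 without control 3. Nupl1, the remaining subunit, had 4.88, 3.44 and 8.67 FPKM in controls and 4.57, 5.36 and 8.07 with aminophylline, with full overlap and a log2 fold change of 0.12.

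The ratio of Nup62 to Nup54 within a library does not depend on library scaling. It was 0.120, 0.287 and 0.201 in control 1 to 3 and 0.389, 0.484 and 0.541 in aminophylline 1 to 3. All aminophylline libraries lay above all controls, with a 2.45-fold difference of the geometric means that was 1.94-fold without control 1. The ratio of Nupl1 to Nup54 was also separated, at 0.0809 to 0.137 in controls and 0.147 to 0.204 with aminophylline, a 1.63-fold difference that was 1.44-fold without control 1. The ratio of Nup62 to Nupl1 overlapped, since control 2 at 2.87 lay above 2 of the 3 aminophylline values. An exact permutation test of 3 against 3 libraries cannot give a two-sided p under 0.1, which is what each separated ratio here gives. The ratios shown were picked after the values were seen. Nup62 to Nup54 joins the members with the most positive and most negative log2 fold change. That ratio adds up differences already given.

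On the cytoplasmic face, Nup88 and Nup214 bind each other and form a platform where exported messenger RNA is released. Nup88 (chr11:70943058-70969973) was the most abundant member of this group. It had 120.9, 89.4 and 142.4 FPKM in control 1 to 3 and 76.6, 84.99 and 91.97 in aminophylline 1 to 3. The control 2 value lay within the aminophylline range and the other 2 controls above it. The log2 fold change was -0.45 (SE 0.19, limma unadjusted p = 0.0380, adjusted p = 0.682).

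Its partner Nup214 (chr2:31974408-32053975) had 7.77, 8.53 and 12.9 FPKM in control 1 to 3 and 11.3, 15.4 and 16.3 in aminophylline 1 to 3. The lowest aminophylline library lay under control 3, and the other libraries were separated. The log2 fold change was 0.53 (SE 0.24, limma unadjusted p = 0.0479, adjusted p = 0.684). The ratio of Nup214 to Nup88 was 0.0643, 0.0955 and 0.0907 in controls and 0.147, 0.182 and 0.178 with aminophylline. These did not overlap, at a 2.04-fold difference that was 1.81-fold without control 1. This ratio, too, adds up the opposite differences already given for its genes.

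Other members of the cytoplasmic face were nearer to 0. Rae1, an mRNA export factor that binds Nup98, and Aaas, which encodes the anchored WD-repeat protein ALADIN, averaged 68.95 and 64.7 FPKM over the 6 libraries. Their log2 fold changes were 0.05 and 0.18. Nupl2, a docking partner of the export factor Gle1, averaged 2.98 FPKM with a log2 fold change of -0.13. Ranbp2, whose large product binds Ran and acts in SUMO conjugation, averaged 1.38 FPKM and varied 4.44-fold between its lowest and highest library, more than any other tested member.

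Nup98 encodes a precursor that is cut into the FG nucleoporin Nup98, found on both faces, and the outer-ring subunit Nup96. Its FPKM was 55.5, 23.0 and 50.1 in control 1 to 3 and 23.0, 28.2 and 32.8 in aminophylline 1 to 3. Control 2 was the lowest of the 6 libraries and the other 2 controls were the highest. The log2 fold change was -0.52 (SE 0.30, limma unadjusted p = 0.109), and with the replicate block the unadjusted p was 0.0256 and the adjusted p 0.280. Leaving out control 1 gave -0.28 (limma unadjusted p = 0.392) and leaving out control 2 gave -0.90 (limma unadjusted p = 0.000805). The ratio of its binding partner Rae1 to Nup98 ranged from 1.04 to 3.24 in controls and from 2.24 to 3.18 with aminophylline, so the groups overlapped.

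The outer ring is built from Y-shaped assemblies that coat both faces of the pore. Sec13, a subunit that is shared with the COPII vesicle coat and the GATOR2 nutrient-sensing complex, was its most abundant transcript. Sec13 (chr6:113728052-113740681) had 165, 201 and 201 FPKM in control 1 to 3 and 251, 233 and 241 in aminophylline 1 to 3. The groups did not overlap. The log2 fold change was 0.36 (SE 0.15, limma unadjusted p = 0.0359, adjusted p = 0.682).

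Seh1l, which encodes another subunit shared with GATOR2, had 20.2, 14.4 and 16.6 FPKM in control 1 to 3 and 11.9, 13.55 and 11.6 in aminophylline 1 to 3. Every aminophylline value lay below every control value. The log2 fold change was -0.43 (SE 0.20, limma unadjusted p = 0.0515), and with the replicate block the unadjusted p was 0.0407 and the adjusted p 0.322. Nup85, to which Seh1l binds in the Y, had 95.1, 104.7 and 128.2 FPKM in controls and 92.9, 82.1 and 91.7 with aminophylline. Its groups were separated by a narrow margin, with a log2 fold change of -0.29 and a limma unadjusted p of 0.112.

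The ratio of Sec13 to Nup85 had the smallest standard error of the ratios examined, 0.09 on the log2 scale. It was 1.74, 1.92 and 1.57 in control 1 to 3 and 2.70, 2.84 and 2.63 in aminophylline 1 to 3. The groups were well apart, at 1.57-fold both with and without control 1. The separation itself was fixed in advance, since Sec13 alone was higher and Nup85 alone lower without overlap. The ratio of Sec13 to Seh1l was 8.19, 13.9 and 12.1 in controls and 21.1, 17.2 and 20.8 with aminophylline. This 1.77-fold difference was 1.51-fold without control 1. Seh1l alone was also lower without overlap, so this ratio had to separate too. The ratio of Seh1l to Nup85 overlapped between the groups, at 0.130 to 0.212 and 0.127 to 0.165.

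The remaining outer-ring transcripts had log2 fold changes between -0.06 and 0.30. Nup43 and Nup37, small WD-repeat subunits, averaged 206.8 and 153.7 FPKM, with log2 fold changes of 0.09 (95% interval -0.26 to 0.43) and -0.06 (-0.45 to 0.33). Nup107, Nup133 and Nup160, which form the stem and arm of the Y, averaged 21.9, 5.43 and 2.44 FPKM. Nup133 varied least of all tested members, 1.125-fold between its lowest and highest library. Ahctf1, encoding ELYS, which recruits the Y complex to chromatin when pores reassemble, averaged 2.04 FPKM with a 3.78-fold range.

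The inner ring joins the scaffold to the membrane and to the channel. Nup35, a small membrane-binding subunit, had 358, 311 and 294 FPKM in control 1 to 3 and 281.5, 261.5 and 230.3 in aminophylline 1 to 3. The groups did not overlap, with a log2 fold change of -0.32 (SE 0.16, limma unadjusted p = 0.0667, adjusted p = 0.688). Nup188, a large scaffold subunit, had 2.44, 2.64 and 4.83 FPKM in controls and 3.50, 5.60 and 5.50 with aminophylline. Control 3 lay above the lowest aminophylline library. Its log2 fold change was 0.47 (SE 0.27, limma unadjusted p = 0.110), and with the replicate block the unadjusted p was 0.0391 and the adjusted p 0.318. Without control 3 the log2 fold change was 0.71, without control 1 it was 0.33 and without control 2 it was 0.37.

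Nup93, which binds either Nup188 or its relative Nup205, had 6.17, 5.77 and 9.93 FPKM in controls and 4.84, 5.75 and 5.86 with aminophylline, with overlap. The ratio of Nup188 to Nup93 was 0.396, 0.457 and 0.486 in controls and 0.723, 0.9745 and 0.938 with aminophylline. These were separated, at 1.96-fold, or 1.85-fold without control 1. Nup205 was at 0.666, 0.488 and 1.31 FPKM in controls and 0.546, 0.607 and 1.13 with aminophylline, and reached 1 in only 1 library of each group. Nup155, a membrane-facing scaffold subunit, had a log2 fold change of 0.13.

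**Figure D3:**
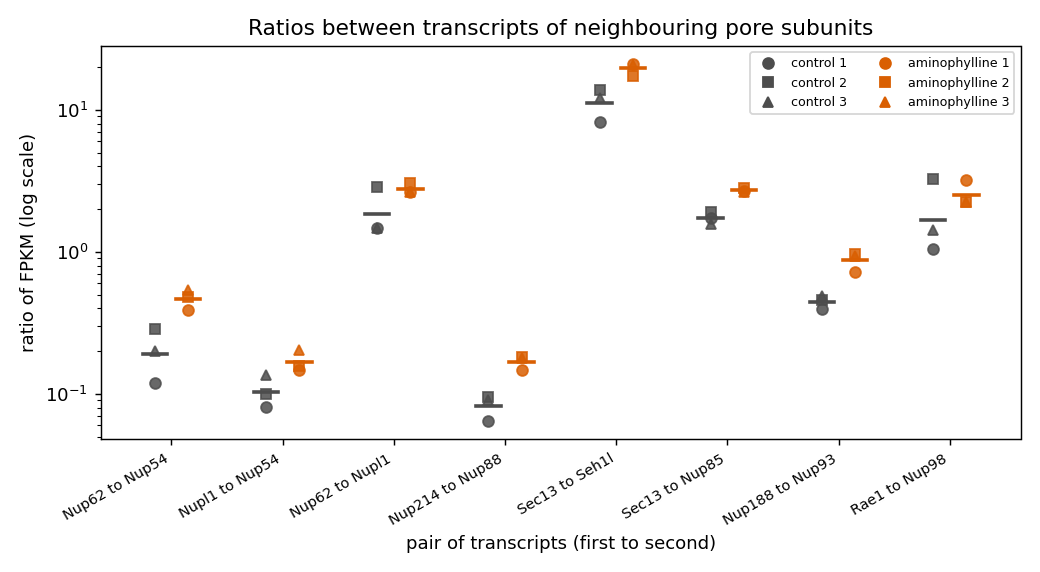
Ratio of FPKM between transcripts of neighbouring pore subunits in each library, on a log axis. Points are libraries (grey control, orange aminophylline, symbols by replicate) and bars are geometric means of the 3 libraries. The groups are separated for 6 of the 8 pairs drawn, while Nup62 to Nupl1 and Rae1 to Nup98 overlap.

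Of the 11 ratios examined singly, 6 were separated and 5 overlapped. Among the 6, Sec13 to Nup85 and Sec13 to Seh1l had to separate, because each gene alone was separated, in opposite directions. The ratios not drawn, Seh1l to Nup85, Nup188 to Nup35 and Sec13 to Nup98, all overlapped. Nup188 to Nup35 was at 0.00682 to 0.0164 in controls and 0.0124 to 0.0239 with aminophylline. Sec13 to Nup98 was at 2.98 to 8.75 and 7.36 to 10.9. Among all pairs of tested members, 85 of 378 ratios (22.5%) did not overlap between the groups. The share was 13.0% over all pairs of tested genes above 0 in each library. Within structural groups it was 14 of 64 pairs (21.9%), and across groups 71 of 314 (22.6%). By group it was 2 of 3 in the central channel, 8 of 36 in the outer ring, 3 of 15 on the cytoplasmic face, 1 of 6 in the inner ring, and 0 of 4 in the basket and the membrane ring together. Pairs share genes and are not independent. Nup62 and Nup54, the members with the most positive and most negative log2 fold change, each took part in 12 separated pairs, and Ranbp2 and Pom121 in 1 each.

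Membrane nucleoporins anchor the pore in the envelope. Ndc1, a transmembrane subunit also needed for pore insertion, was the highest of them, with 11.2, 7.99 and 16.5 FPKM in control 1 to 3 and 8.58, 11.01 and 12.5 in aminophylline 1 to 3. The controls spanned the aminophylline values. Pom121, a transmembrane FG nucleoporin, averaged 1.82 FPKM with a log2 fold change of 0.33 (limma unadjusted p = 0.265). Nup210, the transmembrane glycoprotein gp210, was at a mean of 0.242 FPKM and 25 to 99 reads per library.

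The nuclear basket, a filamentous structure on the inner face, contributed Nup153, Tpr and Nup50. Their means lay close together, at 5.74, 5.13 and 5.09 FPKM. Nup153 had 5.04, 2.83 and 9.57 FPKM in controls and 3.86, 5.25 and 7.90 with aminophylline, with the controls spanning the treated libraries. All 3 basket genes had small positive log2 fold changes, from 0.05 to 0.23, and their smallest unadjusted p was 0.392 (limma). For Nup153 the 95% interval ran from -0.74 to 0.83, the widest of the tested members.

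The paralogs restricted to other tissues were near 0. Nup210l, related to Nup210 and known from testis, had 6 to 29 reads per library and a mean of 0.0834 FPKM. Nup62cl, a relative of Nup62, had 0 to 2 reads in every library, at or under the 3 reads that a count of 0 allows, so no fold change is given. Counts and limits of this kind cover counting error only.

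Level went with gene length among the members, as the plot of level against length shows. The 9 tested members with a gene length under 3000 bases had mean FPKM of 43.7 to 289.5, and the 19 tested members of 3000 bases or more had 1.06 to 35.4, with a median of 5.43. Of the 4 untested members, all with a mean under 1 FPKM, Nup62cl was short and the other 3 long. Over the 28 tested members the Spearman correlation of length with mean FPKM was -0.75, over all 32 members it was -0.62, and over all tested genes it was -0.29. The members share the same 6 libraries, and FPKM divides by this length. The range between lowest and highest library also went with length, at 0.57 over the members and 0.05 over all genes.

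**Figure D4:**
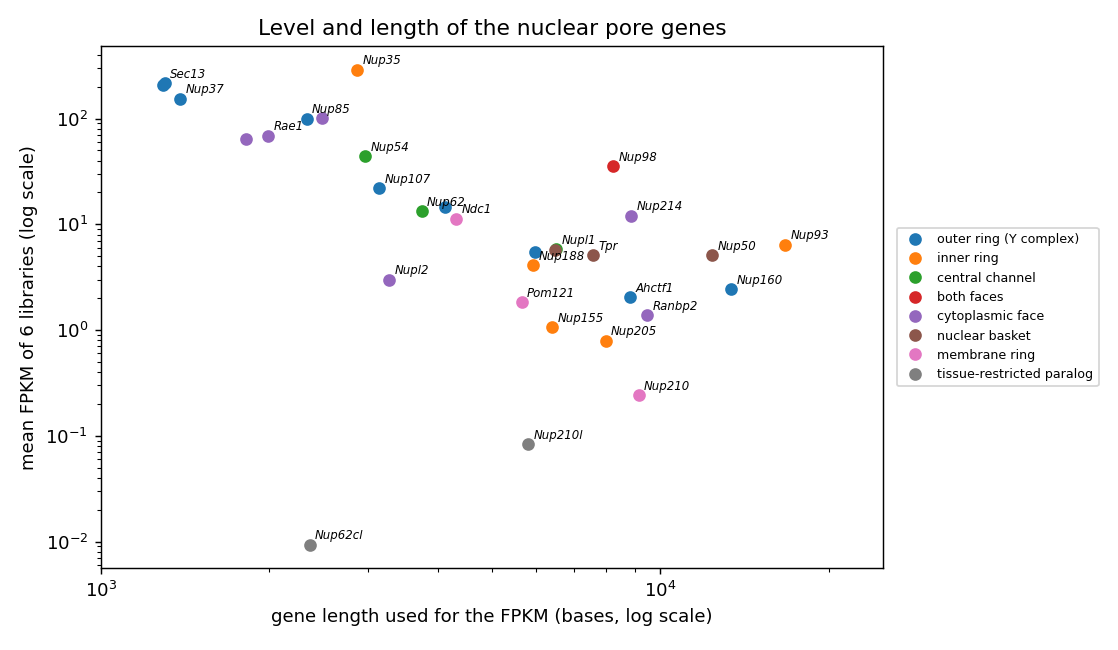
Mean FPKM over the 6 libraries against the gene length implied by the FPKM values, both on log axes, for the 32 nuclear pore genes coloured by structural group. Short members such as Sec13, Nup37 and Nup35 lie at the top left, long scaffold genes such as Nup160 and Nup205 at the lower right, and Nup62cl is the short gene near 0.

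GC content moved with the differences. Over the 28 tested members the Spearman correlation of transcript GC content with log2 fold change was 0.42, close to the 0.40 over the 9487 tested genes with a known GC content. The 8 members with GC of 51% or more had a median log2 fold change of 0.35 with 7 positive values, and the 20 others a median of 0.04 with 11 positive. After correcting each library for length and GC content the correlation over the members was 0.20, and 2 members were higher and 1 lower at unadjusted p under 0.05, beside 5.60% and 2.75% of all tested genes. The correction left log2 differences of 0.95 for Nup62 to Nup54, 0.75 for Nup214 to Nup88 and 0.69 for Nup188 to Nup93, which were 1.29, 1.031 and 0.97 before it. In these pairs the first transcript was richer in GC by 11.9, 6.8 and 5.7 percentage points, in that order. Sec13 was richer than Seh1l by 10.3 points, and their ratio went from 0.82 to 0.64 on the log2 scale. Sec13 and Nup85 differ by 1.0 percentage point in GC, and their ratio went from 0.65 to 0.59. Nupl1 and Nup54 differ by 1.1 points, and their ratio went from 0.70 to 0.57.

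**Figure D5:**
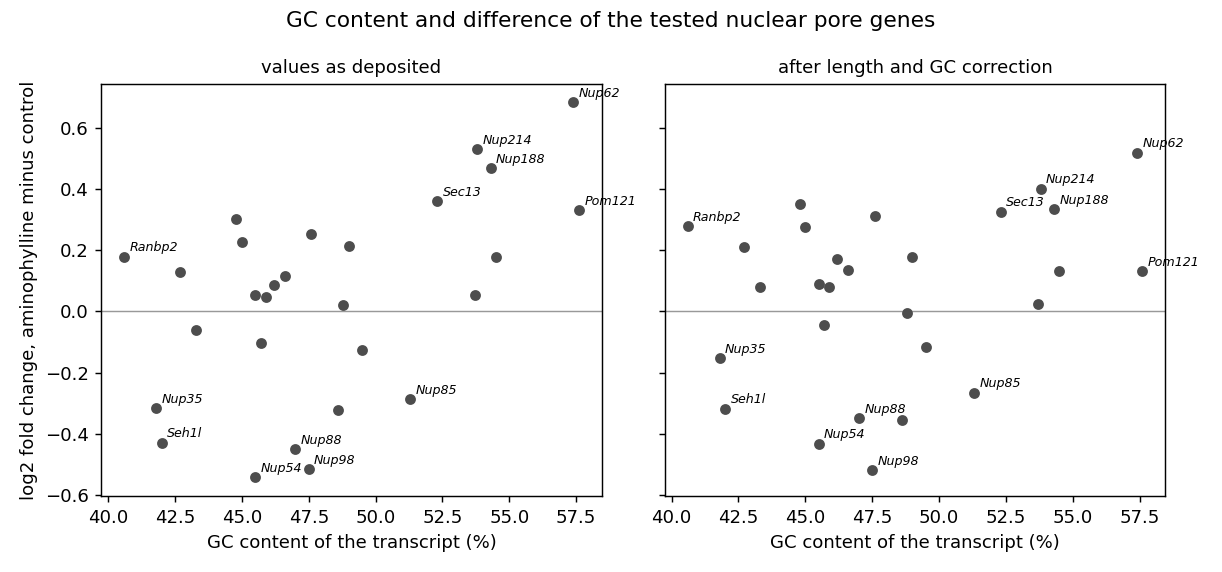
Log2 fold change (aminophylline minus control) against the GC content of the transcript for the 28 tested nuclear pore genes, as deposited (left) and after correction of each library for length and GC content (right). Nup62 and Nup214 have the highest values and Nup98 and Nup54 the lowest in both panels, while Nup188 comes next on the left and lies among Ahctf1, Sec13 and Nup107 on the right.

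Libraries differed in a common way across the members. Control 3 held the highest value of 11 of the 28 tested members and aminophylline 3 of 7, against 24.4% and 24.6% of all tested genes. The aminophylline 3 count was near its share of all tested genes. Control 2, the library with the fewest reads, held the lowest value of 12, against 29.0% of all genes. The control SD exceeded the aminophylline SD in 23 of 28 members (82.1%), and in 74.7% of all tested genes.

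Some members overlap other genes on the chromosome, and the sources used here do not say whether counting used strand. Nup43 overlaps Pcmt1 at a mean of 26.0 FPKM, and Tpr overlaps Odr4 and Prg4 at 4.97 and 6.52 FPKM, similar to the 5.13 of Tpr itself. The values of Tpr are uncertain for this reason. Near the members that carry the contrasts there was less: Rabep1 at Nup88 had 2.72 FPKM, Gm42114 at Nup54 0.221, Atf5 at Nup62 0.0454 and Fam78a at Nup214 0.000954, and no annotated gene overlapped Sec13, Nup85 or Nup35.

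Partners of the pore were read from 6 lists chosen by function, of which 77 genes were tested, and 0 had an adjusted p under 0.05 in limma. In the mRNA export list, 3 of 24 tested genes had an unadjusted p under 0.05 with higher aminophylline means (Ddx39a, Thoc6 and Sem1). The 1 with a lower mean was Pcid2, named after its values were seen. Over all tested genes the shares were 4.41% higher and 2.84% lower. The list's median log2 fold change was 0.14, against 0.10 over all tested genes. Ddx39a, an RNA helicase of the export machinery, had 37.7, 39.4 and 37.7 FPKM in control 1 to 3 and 55.2, 59.6 and 58.0 in aminophylline 1 to 3. The groups lay far apart relative to their spread, with a log2 fold change of 0.58 (SE 0.15, limma unadjusted p = 0.00316, adjusted p = 0.651).

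Sem1, a small subunit of the TREX-2 export complex and the proteasome, was the most abundant gene of that list, with 571, 579 and 501 FPKM in controls and 681, 706 and 683 with aminophylline. Thoc6, of the THO export complex, had 26.9 to 35.6 FPKM in controls and 38.4 to 43.5 with aminophylline. Neither gene overlapped between the groups, and their log2 fold changes were 0.33 and 0.40. Pcid2, a TREX-2 subunit, had 7.68 to 8.48 FPKM in controls and 5.47 to 6.18 with aminophylline, again without overlap. Of all tested genes, 7.51% did not overlap with higher aminophylline values and 4.96% with lower ones.

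In the SUMO conjugation list, 1 of 14 tested genes, the SUMO ligase Pias4, had an unadjusted p under 0.05. Its mean was higher with aminophylline, a direction in which 4.41% of all tested genes had such a p. It had 4.10, 6.82 and 12.2 FPKM in control 1 to 3 and 13.4, 14.7 and 18.5 in aminophylline 1 to 3. The groups did not overlap, with a log2 fold change of 1.02 (SE 0.31, limma unadjusted p = 0.00749, adjusted p = 0.661). With the replicate block its adjusted p was 0.0329, the only partner gene past that threshold, but no partner gene passed when the block was combined with the length and GC correction, a common sum or quantile normalization. Sumo2 was the most abundant of this list, at 318 FPKM in controls and 318.5 with aminophylline, and the median log2 fold change of the list was -0.08.

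The other lists had no gene with an unadjusted p under 0.05 without the block. The Ran cycle, which sets the direction of transport, had 7 tested genes and a median log2 fold change of 0.28, and its most abundant gene Ranbp1 averaged 127 FPKM in both groups. The nuclear lamina and inner membrane list had 15 tested genes and a median of 0.16, with Banf1, a chromatin-binding lamina protein, at 338 FPKM in controls and 387 with aminophylline. The 11 tested COPII genes, the other users of Sec13, had a median of 0.11, and the GTPase Sar1b was at 183 FPKM in both groups. With the replicate block the counts at unadjusted p under 0.05 were 5 higher and 2 lower in mRNA export, 2 higher in the Ran cycle, and 1 higher each in the lamina and COPII lists. Over all tested genes the block gave 9.88% higher and 4.30% lower, and the median log2 fold change was 0.10. The list of GATOR2 and GATOR1 genes had 6 tested genes and a median of 0.07, and only GATOR2 shares Sec13 and Seh1l. Its most abundant gene, the GATOR1 subunit Nprl2, was at 106 FPKM in controls and 125 with aminophylline.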

How the data were processed

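Oocyte RNA was sequenced in 3 control and 3 aminophylline libraries. The authors deposited FPKM per gene, with no further scaling between libraries. The submitters' processing notes name GRCm38 (mm10). The aligner, counter, annotation and strand setting are not given in the sources used here. Whole reads, totals and gene lengths were recovered from ratios of the FPKM (100% of 22583 genes above 0 in at least 2 libraries gave whole-number ratios within a relative 1e-11, and 399 of the 400 lengths used to set the total were whole within 0.0002 bases).

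Groups and replicate numbers came from the labels. Genes with FPKM of at least 1 in at least 3 libraries (10340) were tested two-sided with limma 3.58.1 in R 4.3.3 (trended, moderated variance) on log2(FPKM + 1), with Benjamini-Hochberg adjustment over all of them. The script was tested on simulated data. Ratios, motifs and overlaps used Python 3.11.15, numpy 2.4.6 and scipy 1.17.1, and GC content came from the GENCODE M21 transcript nearest in length. Members, lists and motifs were chosen with earlier results of these data known. Values per library were given for members at unadjusted p under 0.05 with or without the block. The same was done for the highest tested member of each structural group and for the untested Nup205. The ratio partners Nupl1, Nup85 and Nup93, chosen after values were seen, were also given per library. Other members are given by mean, range or fold change. From partner lists came at most 3 genes at unadjusted p under 0.05 plus the highest. The equal replicate numbers in the labels were checked as pairs by correlating deviations from group means over all tested genes. No source used here says that equally numbered libraries belong together. The values were 0.138, 0.140 and 0.552 for numbers 1 to 3. Control 2 correlated more with aminophylline 1 (0.423) than with its own number, so the pairing is uncertain. Alternatives were other scalings, filters, weights, a GC correction, voom on recovered reads, the block, and leaving out each library. The metabolome and the imaging were not analysed here.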

Additional observations from a re-analysis of the deposited data

How the results depend on the processing

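No member passed adjusted p 0.05 under any of the alternatives, and the named members Nup62, Nup214, Sec13, Nup188, Nup54, Nup88, Nup98 and Seh1l kept their direction in each. At unadjusted p under 0.05 (3 higher, 2 lower), the higher count was 1 after rescaling to a common sum and 1 in the unmoderated model, and the lower count was 1 without a filter, 1 in the unmoderated model, 1 after length and GC correction, 4 after quantile normalization, 4 after median centring and 5 with library weights. With the replicate block, which treats equal numbers as pairs, the lower count was 4, and Pias4 made the partner genes past adjusted p 0.05 number 1. At adjusted p 0.05 the block changed no other call among the members and partner genes, and at unadjusted p it made the higher count 4. Combinations added after seeing the data gave lower counts of 6 (voom with the block), 5 (common sum with the block) and 6 (quantile with the block). Of these 3 and the length and GC correction with the block, voom called 1 partner gene and the others 0. Leaving out each library in turn gave 0 to 5 higher and 0 to 4 lower members, 5 to 10 members without overlap (17.9% to 35.7%, beside 18.1% to 31.8% of all tested genes), and medians of -0.07 to 0.19. Members without overlap numbered 8 after quantile normalization and 7 after median centring, against 4 (28.6%, 25.0% and 14.3%, beside 14.3%, 13.8% and 12.5% of all tested genes). The cause of these shifts was not tested, apart from fewer samples when a library is left out. Depth limits Nup210, Nup210l and Nup62cl, at 0 to 99 reads per library, most of all, and 3 libraries a group limit every test.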
